A study of Homo sapiens with 2 samples.

Results

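A2780CBNDXL is a line of A2780 human ovarian carcinoma cells that was selected for survival in carboplatin and docetaxel given together. It was taken here as the sample named so in the labels, with the 4 of 8 arrays that carry its RNA, and it is 1 of the 2 samples analysed. A2780 is an established line of endometrioid type. The selection raised the doses of both drugs stepwise by the same factor, and the labels give 8.02 µM for the combination as the last dose that the cells tolerated. In the study's text 8.02 µM is instead the IC50 of carboplatin in the combination, given with docetaxel at 8.02 nM. The other sample, A2780CBN, came from the same parental cells and was selected to 22.2 µM of carboplatin. Each line was set against A2780CC, parental cells carried beside it in culture without drug. Line and control thus share the time in culture. The study developed such a control for each resistant line, under the same name. The RNA of each line is a pool of 3 isolations, so the 4 arrays are repeats of a single sample. The line selected with docetaxel alone was not analysed here. The scheme was meant to keep a mixed population and not to grow up a clone, but whether A2780CBNDXL holds many clones was not measured on these arrays.

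Carboplatin binds DNA and links its bases, within a strand and between strands, and cells meet it with DNA repair, with thiols such as glutathione and metallothionein, and with the carriers that let platinum in and out. Docetaxel binds beta-tubulin and freezes microtubules, and cells escape it most directly with ABCB1 (P-glycoprotein), a membrane pump that expels taxanes but not platinum drugs. The question the comparison addresses is which genes differ in expression between cells that carry resistance to both drugs and their drug-free counterparts.

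Of 30238 gene names on the array, 17116 could be tested, meaning that line or control was well above background on all 4 arrays. A gene was called changed (higher or lower in the line) when its mean ratio was at least 2-fold, with the same sign on all 4 arrays. By this rule 2893 genes (16.9%) changed, of which 1318 (7.70%) were higher and 1575 (9.20%) were lower in A2780CBNDXL. Differences of over 8-fold were seen for 220 higher and 337 lower genes, and of over 32-fold for 49 and 75. The median log2 ratio over all genes tested was 0.04. Because line and control are each 1 sample, no test across samples was possible: the ± given below is the SD of 4 arrays of the same RNA (median 0.29 over changed genes), and says nothing of how a second selection would turn out. Array pairs correlated at 0.89 to 0.98 across genes, which are not independent replicates. Array 1 stood apart in its spike-in controls, which varied by 19.5% and 20.0% in its channels against 3.56% to 4.87% on the other 3 arrays of the line, and it is left out as an alternative in the closing section. Of 878 further probes for changed genes, 846 (96.4%) had the same sign, and 1, for ATP8B3, was changed in the opposite direction (1.58 on the log2 scale against -1.69).

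**Figure D1:**
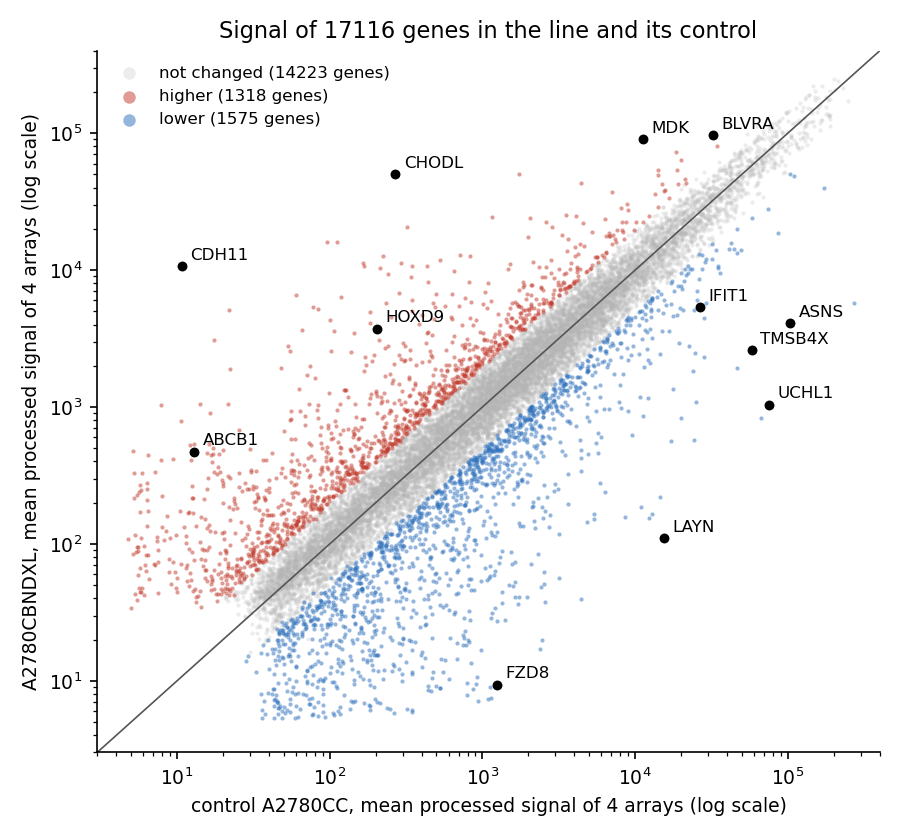
Mean processed signal of the 4 arrays for each of the 17116 genes tested, control on the x axis and A2780CBNDXL on the y axis, both log scales in arbitrary units. Red points are the 1318 higher genes, blue points the 1575 lower genes, grey points the 14223 others, and the line marks equal signal. ABCB1 and CDH11 lie at the lower edge of the control axis, where the control was not above background.

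Among named genes with both channels well above background on all 4 arrays, the largest difference was that of CHODL, which encodes the membrane lectin chondrolectin. Its log2 ratios on the 4 arrays were 8.05, 7.22, 7.72 and 7.38 (mean 7.59 ± 0.37), from a signal of 270 in the control to 50081 in the line. On every array it lay far above the control, and in A2780CBN its value was -0.84. SUCNR1, the receptor for succinate, followed the same course with 7.69, 7.01, 7.62 and 7.28 (mean 7.40 ± 0.31), and IFI16, a sensor of DNA in the nucleus and cytoplasm, reached 6.05 ± 0.32. The gene for interferon gamma, IFNG, which lymphocytes normally secrete, had ratios of 6.09, 5.36, 6.36 and 5.65 (mean 5.87 ± 0.44) and a signal of 3671 against 65.4. Also among the 15 largest were GNA14, a Gq-class G protein subunit (6.11 ± 0.25), the type II cadherin CDH7 (6.10 ± 0.49), and PRSS7, the gut protease enteropeptidase (6.94 ± 0.62). EBF1, a transcription factor of B cells, had a mean of 7.55, but its 4 values of 7.83, 8.98, 4.74 and 8.63 were spread widely. Among the brightest genes, the growth factor midkine (MDK) rose by 2.98 ± 0.33 to a signal of 90380. HMGN5, which loosens chromatin by binding nucleosomes, rose by 4.93 ± 0.45. Several of these genes were higher in A2780CBN too: GNA14 (at least 34.5-fold), IFNG (at least 10.5-fold), IFI16 (at least 3.19-fold), PRSS7 (7.36) and CDH7 (2.38). There MDK (0.23) and HMGN5 (0.73) were under the limit, as was CHODL, and SUCNR1, EBF1 and FAM155A could not be tested.

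In the other direction LAYN, a membrane receptor for hyaluronan, had log2 ratios of -7.33, -7.31, -6.55 and -7.56 (mean -7.19 ± 0.44), a signal of 110 in the line against 15569 in the control. UCHL1, a ubiquitin hydrolase abundant in neurons, was at -6.48, -6.10, -5.69 and -6.65 (mean -6.23 ± 0.43), and its control signal of 74927 was among the brightest of all lower genes. No array placed either of them near its control. VAV3, an activator of small GTPases, was at -7.33 ± 1.18, the adhesion protein gene FLRT3 at -6.85 ± 0.70, and ANK3, which anchors membrane proteins to spectrin, at -6.26 ± 0.33. SOCS2, a feedback inhibitor of cytokine receptors, was lower by a near constant amount (-5.87, -6.17, -5.82 and -6.26, mean -6.03 ± 0.22). ANXA1, a membrane-binding annexin, was at -5.41 ± 0.12. TMSB4X, whose product sequesters actin, was at -4.81 ± 0.75, with array 1 the lowest at -5.69 and array 3 the highest at -3.90.

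**Figure D2:**
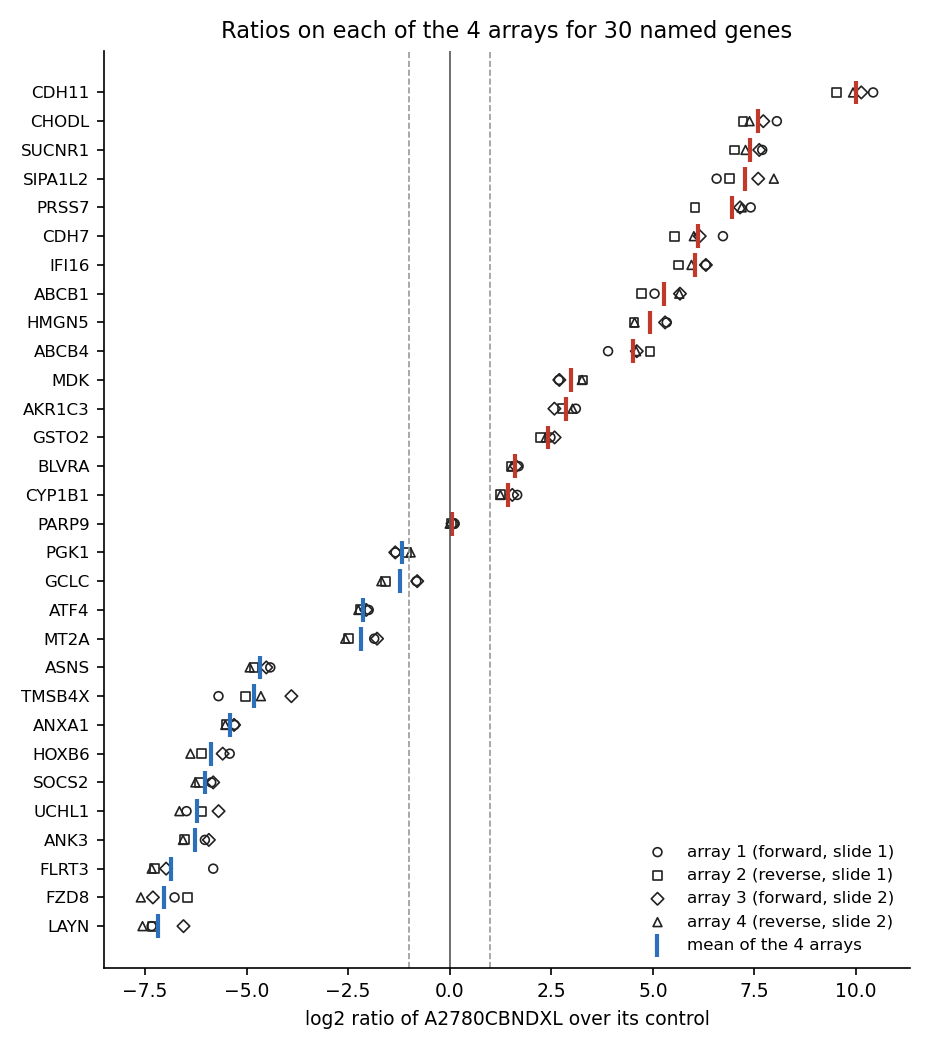
Log2 ratio of A2780CBNDXL over its control for 30 named genes, with an open symbol for each of the 4 arrays and a bar for their mean (red above 0, blue below), dashed lines marking 2-fold. The arrays of a gene lie close together beside the distance from 0 for most genes, PARP9 lies at 0 (0.06 ± 0.05), and forward and reverse arrays separate for GCLC and MT2A. For CDH11, ABCB1, ABCB4 and FZD8 the measured ratio is drawn, although the dimmer channel was below background.

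Some genes were visible in the line alone or in the control alone. For these no array had the dimmer channel well above background, and the fold is a lower bound: the brighter channel over the lowest signal that counted as well above background. CDH11, a type II cadherin of mesenchymal cells, was at least 536-fold higher, with signals near 10709 in the line and 10.7 in the control. Further genes with a control below background were ASAM, an adhesion molecule (at least 52.6-fold), PDE4B, which degrades cyclic AMP (at least 20.9-fold), and the lysosomal protease gene CTSO (at least 14.5-fold). The reverse held for FZD8, a WNT receptor (at least 58.3-fold lower), FOXP2, a forkhead transcription factor (at least 55.3-fold lower), PTX3, a soluble pattern recognition protein (at least 40.5-fold lower), and NOX4, an NADPH oxidase that produces hydrogen peroxide (at least 39.1-fold lower). Over all genes, 123 of the 1318 higher ones had a control below background on every array, and 251 of the 1575 lower ones had the line there.

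**Figure D3:**
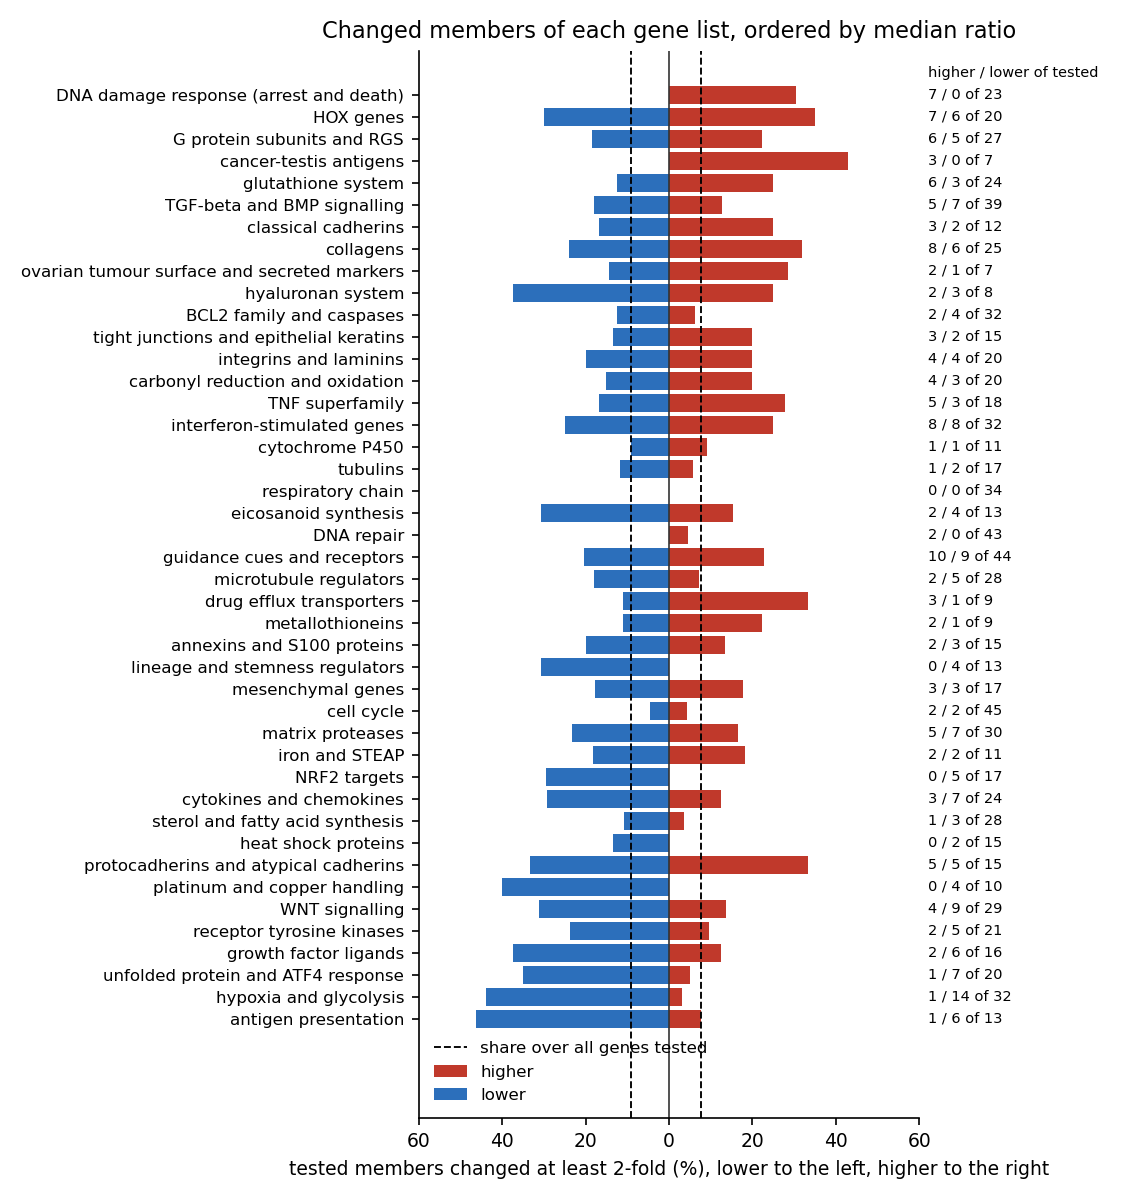
Share of the tested members of each gene list that were higher (red, to the right) or lower (blue, to the left) in A2780CBNDXL, in percent, ordered by the list's median log2 ratio, with the counts at the right. The dashed lines give the shares over all genes tested, 7.70% higher and 9.20% lower. The DNA damage response genes (arrest and death) lie at the top with 7 higher and 0 lower of 23, antigen presentation at the bottom with 1 higher and 6 lower of 13, and the respiratory chain had no changed member among 34.

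Among 9 drug efflux transporters tested of 14 on the list, 3 were higher and 1 was lower, a share of 44.44% against 16.9% over all genes tested. The taxane pump ABCB1 had signals of 383, 568, 473 and 465 in the line on the 4 arrays and of 11.6, 21.7, 9.32 and 9.25 in the control. All line values were above all control values, and the control was at background, so the ratio is a bound of at least 23.5-fold (measured mean 5.27 ± 0.47). Its neighbour ABCB4, which moves phosphatidylcholine across the membrane, was at least 5.34-fold higher. ABCB1 and ABCB4 could be tested only because the line was high, so they could not have been called lower. The vault protein MVP was higher by 1.34 ± 0.10, while ABCG2, a pump for topoisomerase inhibitors and other drugs, was lower at -1.98 ± 0.41. None of the 4 tested multidrug-resistance proteins of the ABCC family passed the limit. With normexp correction, an offset of 50 intensity units and loess together, ABCB1 was at 1.42 and ABCB4 at 0.61. In A2780CBN the ABCB1 probe was not well above background in line or control.

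On the platinum side, 4 of 10 tested carriers and copper proteins were lower and 0 were higher. The copper importer SLC31A1 (CTR1), through which platinum drugs are thought to enter, was at -1.11 ± 0.15, and its relative SLC31A2 at -1.29 ± 0.06. The organic anion carrier SLCO4A1 was at -3.08 ± 0.30 and the cation exporter SLC47A1 at -1.50 ± 0.18. Against the control channel of the A2780CBN arrays, an alternative chosen after seeing the data, SLC31A1 was at -0.99 and SLC31A2 at -0.85, both under the limit.

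Thiol genes changed in both directions. Of 6 tested genes for glutathione synthesis and cystine uptake, GGT1, which breaks down extracellular glutathione, was higher (1.14 ± 0.07) and 3 were lower: the cystine importer SLC7A11 (at least 11.5-fold), and the subunits of glutamate-cysteine ligase, the rate-limiting enzyme, with GCLM at -1.83 ± 0.38 and GCLC at -1.22 ± 0.48. GCLC had values of -0.82, -1.59, -0.80 and -1.68, so that both forward arrays lay under 2-fold and both reverse arrays over it. With normexp and loess 0 of the 6 were higher and 1 was lower. Of the transferases that couple glutathione to drugs 5 of 13 were higher and 0 lower, namely GSTM2 (2.54 ± 0.61), GSTO2 (2.42 ± 0.15), GSTM1 (1.70 ± 0.55), GSTM5 (1.73 ± 0.65) and MGST3 (1.27 ± 0.13). The GSTM genes are close copies of each other, and their probes may share transcripts. Among 17 tested targets of NRF2, the transcription factor of the oxidative stress response, 0 were higher and 5 were lower, including the heme-degrading enzyme HMOX1 (-3.13 ± 0.20). With normexp and loess 2 of these 17 were lower, and against the control channel of the A2780CBN arrays 3 of 16. Of 9 metallothioneins, small proteins that bind metals through cysteine, MT2A was lower (-1.86, -2.49, -1.79 and -2.57, mean -2.18 ± 0.41), while MT1E was higher (1.15 ± 0.43) and MT1M at least 7.55-fold higher. With normexp and loess 0 of the 9 metallothioneins were higher and 1 was lower.

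Enzymes that act on carbonyl groups, the chemistry that inactivates several drugs and aldehydes, also changed in both directions, 4 higher and 3 lower of 20. AKR1C3, a steroid-reducing aldo-keto reductase, had ratios of 3.10, 2.76, 2.58 and 3.02 (mean 2.87 ± 0.24). Its neighbour AKR1C1 was at 2.51 ± 0.15 and carbonyl reductase CBR1 at 1.74 ± 0.28. The aldehyde dehydrogenases differed among themselves: ALDH1A3 was higher (2.52 ± 0.58), and ALDH1A1 (-5.14 ± 1.10) and the mitochondrial ALDH2 (-2.21 ± 0.06) were lower. Of 11 cytochrome P450 genes and their regulators, CYP1B1 was higher (1.66, 1.26, 1.54 and 1.25, mean 1.43 ± 0.21) and TIPARP, a brake on the aryl hydrocarbon receptor, was lower (-2.78 ± 0.19). With the control channel of the A2780CBN arrays CYP1B1 was at 0.99, just under the limit. The changed share of the P450 list, 18.18%, was close to the 16.9% over all genes tested.

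Of 17 tested tubulins, the family that holds the docetaxel site, TUBB2B (-4.00 ± 0.80) and TUBE1 (-2.71 ± 0.12) were lower, and 14 were under the limit. TUBA3C was higher at 1.01 ± 0.12, but at -0.13 with the other control channel. The changed share of the tubulins, 17.65%, was close to the 16.9% over all genes tested. Of 28 proteins that bind, sever or modify microtubules, 2 were higher and 5 lower. MAPRE2, a plus-end tracking protein, was at 2.40 ± 0.20 and the tubulin deacetylase HDAC6 at 1.44 ± 0.20. The neuronal stabilisers were on the lower side, with MAP2 at least 16.4-fold lower and MAP1B at -3.65 ± 0.09, as was the severing enzyme FIGN (at least 31.5-fold lower). MAPT (tau), another stabiliser, was at -2.11 ± 0.23 against its own control and at 0.03 against the other.

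Cadherins changed in both directions. Of 6 tested type II cadherins, CDH7 and CDH11 were higher as given above and CDH12 was lower (-3.24 ± 0.21), and among protocadherins and atypical cadherins 5 were higher and 5 lower of 15. PCDH9 (4.69, 4.55, 4.69 and 4.58, mean 4.63 ± 0.08), PCDH18 (4.21 ± 0.16) and CDH23 (3.51 ± 0.09) were higher. PCDH15 (at least 23.9-fold), PCDH17 (-3.31 ± 0.16) and PCDH19 (-3.27 ± 0.60) were lower. At tight junctions, occludin (OCLN) was lower at -4.37 ± 0.19 and CLDN6 higher at 2.22 ± 0.65. Genes of the mesenchymal state had 3 higher and 3 lower of 17: the collagen-crosslinking enzyme LOX was higher (3.56 ± 0.22), as was smooth muscle actin ACTA2 (2.07 ± 0.06), while the matrix protein periostin (POSTN, -6.02, -6.02, -6.15 and -6.11, mean -6.08 ± 0.06) and the repressor SNAI1 (-2.45 ± 0.17) were lower.

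Of 25 collagen genes, 8 were higher and 6 lower. COL6A3, a chain of the beaded-filament collagen, was among the brightest at a signal of 54154 (1.94 ± 0.09). The chains of type I collagen parted, with COL1A1 higher (2.04 ± 0.20) and COL1A2 lower (-2.81 ± 0.07). Against the other control channel COL1A2 was at -0.77, and the list had 8 higher and 1 lower of 24. Among matrix proteases and their inhibitors, 5 were higher and 7 lower of 30. MMP1 (-4.25 ± 0.32), MMP3 (-4.93 ± 0.39) and MMP10 (-3.71 ± 0.29), neighbours on chromosome 11, were lower, together with the plasminogen activator PLAU (-3.72 ± 0.29). The membrane-type proteases MMP14 (3.65 ± 0.31) and MMP16 (3.19 ± 0.23) were higher, as were MMP2 (at least 6.60-fold) and the inhibitor TIMP3 (4.79 ± 0.39). Of 20 integrins and laminins, 4 were higher, led by ITGB5 (2.85 ± 0.23), and 4 lower, led by LAMA1 (-5.43 ± 0.60) and ITGA6 (-3.98 ± 0.18).

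Guidance cues and receptors, which steer axons and migrating cells, had 10 higher and 9 lower of 44. The netrin receptor UNC5C (5.67 ± 0.83) and the semaphorin SEMA6D (5.86 ± 0.58) had the largest ratios, and FLRT3, which binds UNC5 receptors, the smallest. Among receptor tyrosine kinases 2 were higher and 5 lower of 21, with PDGFRA at 2.95, 2.76, 3.02 and 2.87 (mean 2.90 ± 0.11) and ERBB3 at -2.73 ± 0.10. The growth factor ligands had 2 higher and 6 lower of 16. PDGFC, a ligand of that receptor, was at 5.76 ± 0.43 and FGF18 at 2.86 ± 0.10, whereas VEGFC, a lymphatic growth factor (-3.46 ± 0.43), and the MET ligand HGF (-1.92 ± 0.07) were lower. In the TGF-beta and BMP pathway 5 were higher and 7 lower of 39. The receptor BMPR1B was higher at 4.62 ± 0.39 and TGFBR2 lower at -2.36 ± 0.30.

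In WNT signalling 4 genes were higher and 9 lower of 29. Of 13 tested receptors and co-receptors 7 were lower and 1 was higher, with a median of -1.26. FZD8 (at least 58.3-fold), FZD3 (at least 33.2-fold), FZD5 (-2.57 ± 0.19) and LGR4 (-2.30 ± 0.43) were lower, and FZD1 was higher (1.86 ± 0.34). The ligand WNT3A was at least 14.6-fold lower. Of 10 antagonists and targets, 3 were higher: the secreted antagonist FRZB (3.93 ± 0.40), RNF43, which removes Frizzled proteins from the surface (3.44 ± 0.32), and DKK1, which blocks the LRP co-receptors (1.96 ± 0.13, to a signal of 72383). The antagonist WIF1 went the other way (-2.22 ± 0.25). With the other control channel 6 of 12 receptors were lower and 2 higher.

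Interferon-stimulated genes changed in both directions, 8 higher and 8 lower of 32, with a median of 0.07. With normexp and loess 2 were higher and 7 lower. The IFIT genes, whose products bind foreign RNA, were lower: IFIT1 at -2.29, -2.35, -2.27 and -2.31 (mean -2.31 ± 0.04), IFIT2 at -2.63 ± 0.35, IFIT3 at -1.98 ± 0.56 and IFIT5 at -1.71 ± 0.08. The transcription factor IRF1 (-1.81 ± 0.36) was lower too. SAMD9, an antiviral factor, was at least 16.6-fold higher, and its relative SAMD9L was at 3.39 ± 0.87. The membrane tether BST2 (1.51 ± 0.55), the GTPase gene MX1 (1.46 ± 0.42) and the oligoadenylate synthetase OAS3 (1.41 ± 0.13) were higher. Of 13 antigen presentation genes 1 was higher and 6 were lower (median -0.99), with the peptide transporter TAP1 at -2.56 ± 0.19 and the class I chain HLA-C at -1.72 ± 0.05. PSMB9, an immunoproteasome subunit, was at -1.96 ± 0.08, and the partner subunit PSMB8 was higher at 1.19 ± 0.31.

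These values depend on which control is used. The control of A2780CBNDXL had an IFIT1 signal of 26685, and the control on the A2780CBN arrays had 8044. Both bear the same name, but the study developed a separate control for each resistant line. Against the second control IFIT1 was at -0.69 and TAP1 at -0.85, both under the limit. The interferon list then had 16 higher and 0 lower of 31, with a median of 1.04, and the antigen list 1 higher and 3 lower of 14. HLA-C remained lower at -1.06. The higher members MX1 (2.67) and OAS3 (3.03) were higher with either control, but with normexp and loess at 0.81 and 0.65. What sets the controls apart was not tested.

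The interferon-stimulated response element (core GAAA, any 2 bases and GAAA again, searched on both strands) lies in the 250 bases before the start of 5 of 6 lower and 5 of 6 higher list members that have an entry in the RefSeq table for GRCh38.p14, and in 3.02% of its 35116 promoters. Of 13 members under the limit with an entry 6 have it. It is shown for a pair that was lower and a pair that was higher, in capitals, from 5′ to 3′ on the gene's strand. For MX1 the entry printed is the 1 of 3 that holds a match.
IFIT1 (chr10:89392373-89392622, plus strand, lower): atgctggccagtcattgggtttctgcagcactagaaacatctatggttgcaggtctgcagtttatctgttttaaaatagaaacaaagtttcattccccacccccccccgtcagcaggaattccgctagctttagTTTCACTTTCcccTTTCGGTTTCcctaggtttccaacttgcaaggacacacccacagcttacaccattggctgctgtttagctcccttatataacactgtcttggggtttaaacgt
IFIT3 (chr10:89327747-89327996, plus strand, lower): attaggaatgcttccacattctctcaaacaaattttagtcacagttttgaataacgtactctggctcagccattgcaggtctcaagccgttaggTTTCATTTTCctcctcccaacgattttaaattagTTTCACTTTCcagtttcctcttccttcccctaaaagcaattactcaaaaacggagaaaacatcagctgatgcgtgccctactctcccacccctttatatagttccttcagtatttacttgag
MX1 (chr21:41431800-41432049, plus strand, higher): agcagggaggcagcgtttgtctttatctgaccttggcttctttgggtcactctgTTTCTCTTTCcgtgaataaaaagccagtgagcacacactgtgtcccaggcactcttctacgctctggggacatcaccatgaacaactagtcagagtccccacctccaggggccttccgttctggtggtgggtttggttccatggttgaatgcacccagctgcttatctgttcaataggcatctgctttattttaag
SAMD9 (chr7:93117980-93118229, minus strand, higher): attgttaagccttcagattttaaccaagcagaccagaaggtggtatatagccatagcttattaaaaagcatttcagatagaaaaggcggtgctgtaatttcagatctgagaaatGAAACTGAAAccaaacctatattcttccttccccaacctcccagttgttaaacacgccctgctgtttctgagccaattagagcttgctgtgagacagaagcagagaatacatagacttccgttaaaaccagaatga

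Most members of the ATF4 branch, through which cells answer unfolded protein and a lack of amino acids, were lower. ATF4 itself, a transcription factor, had ratios of -1.99, -2.20, -2.05 and -2.25 (mean -2.12 ± 0.12), and a bright control signal (173510). Of 11 tested members of the branch 7 were lower and 1 was higher (median -1.71). Asparagine synthetase, ASNS, was at -4.41, -4.81, -4.51 and -4.92 (mean -4.67 ± 0.24), a fall from a signal of 103680 to 4082. The repressor ATF3 was at -5.54 ± 0.51, the pseudokinase TRIB3 at -4.51 ± 0.15, the lipoprotein receptor VLDLR at -4.94 ± 0.26, CHAC1, which cleaves glutathione, at -1.71 ± 0.20, and the serine enzyme SHMT2 at -1.43 ± 0.08. The exception was PPP1R15A (GADD34), which reverses the translation block, at 1.08 ± 0.35. None of the 9 chaperones of the endoplasmic reticulum tested passed the limit. With the other control channel, on which ATF4 could not be measured, 6 of 10 members of the branch were lower and 0 higher. In A2780CBN, ASNS was at -0.14 and TRIB3 at 1.41.

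The C/EBP-ATF response element (core TGATGNAA on either strand) was found before the start of 3 of the 6 lower members of the branch with an entry, and in 3.14% of all promoters. They are given in the same form, with the element in capitals. For ASNS and ATF3 the entry printed is the 1 of 2 that holds a match.
ASNS (chr7:97872409-97872658, minus strand, lower): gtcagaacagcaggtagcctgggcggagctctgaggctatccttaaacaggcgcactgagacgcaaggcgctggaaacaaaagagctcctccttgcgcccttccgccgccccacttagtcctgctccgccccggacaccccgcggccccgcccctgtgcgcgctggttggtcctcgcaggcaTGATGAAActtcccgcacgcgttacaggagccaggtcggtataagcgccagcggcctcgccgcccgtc
ATF3 (chr1:212565157-212565406, plus strand, lower): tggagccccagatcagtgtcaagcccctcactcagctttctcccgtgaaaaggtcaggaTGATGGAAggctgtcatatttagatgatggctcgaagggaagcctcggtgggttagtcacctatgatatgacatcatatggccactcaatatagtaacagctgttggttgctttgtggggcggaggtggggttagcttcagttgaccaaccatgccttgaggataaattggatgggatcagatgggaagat
CHAC1 (chr15:40953221-40953470, plus strand, lower): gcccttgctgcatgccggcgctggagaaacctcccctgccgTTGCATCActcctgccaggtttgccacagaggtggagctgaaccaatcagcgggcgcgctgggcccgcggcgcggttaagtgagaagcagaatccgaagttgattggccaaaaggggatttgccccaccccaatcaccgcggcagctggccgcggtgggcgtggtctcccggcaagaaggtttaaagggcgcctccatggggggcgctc

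Hypoxia and glycolysis genes had 14 lower and 1 higher of 32 (median -0.87). The vasodilator adrenomedullin (ADM) was at -5.05 ± 0.51, hexokinase HK2 at -3.35 ± 0.37, the carbonic anhydrases CA9 and CA12 at -3.79 ± 0.65 and -3.19 ± 0.16, the glucose carrier SLC2A1 at -2.23 ± 0.12, and the glycolytic enzyme PGK1 at -1.17 ± 0.19. NDRG1 was the higher one (2.06 ± 0.31). As with interferon, the control matters: against the other channel the list had 5 lower and 4 higher of 28, CA9 was at 0.68, ANGPTL4 at 0.12 (own control -1.64) and the neuronal enolase ENO2 at 0.28 (own control -2.65), while ADM (-3.48), HK2 (-2.56) and CA12 (-2.88) were lower with both. By contrast the respiratory chain had 0 of 34 members changed, with a median of -0.02. Sterol and fatty acid synthesis had 1 higher and 3 lower of 28, a share of 14.29% against 16.9% over all genes tested.

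**Figure D4:**
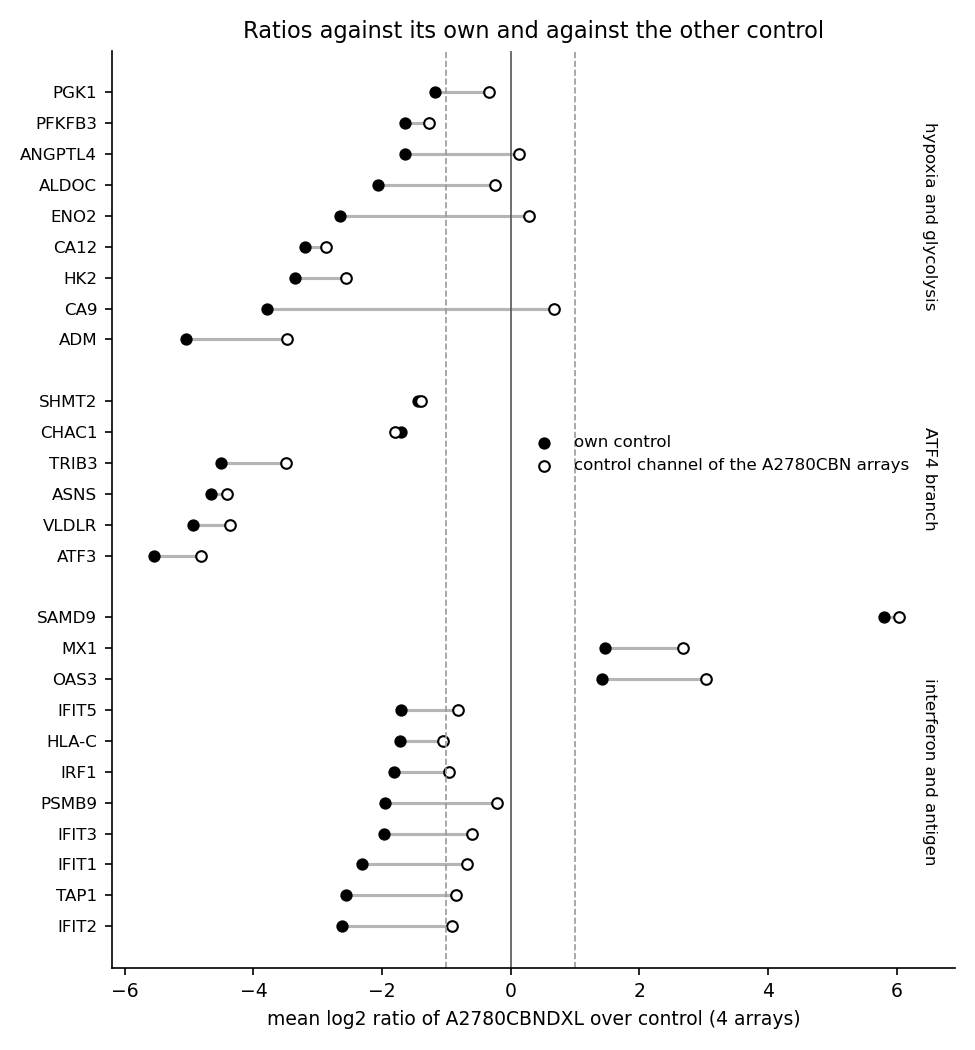
Mean log2 ratio of A2780CBNDXL for genes of the interferon and antigen, ATF4 and hypoxia lists, against its own control (filled circles) and against the control channel of the A2780CBN arrays (open circles), with dashed lines at 2-fold. The ATF4 genes keep their place (ASNS -4.67 and -4.41), whereas IFIT1 (-2.31 and -0.69) and CA9 (-3.79 and 0.68) move toward or past 0. SAMD9 is drawn at its measured ratio, although its control was below background.

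Genes induced by DNA damage, which arrest or kill the cell, had 7 higher and 0 lower of 23 (median 0.59). PMAIP1 (NOXA), a BH3-only death protein, was at 4.13, 4.15, 4.31 and 4.70 (mean 4.32 ± 0.26), and the death receptor FAS at 3.55, 3.27, 3.52 and 3.25 (mean 3.40 ± 0.16). All 4 arrays put both clearly above the control. TP53INP1 (2.07 ± 0.22), the cell cycle inhibitor CDKN1A (1.03 ± 0.13) and BTG2 (1.16 ± 0.24) were higher. With the other control channel 6 of 22 were higher, with CDKN1A at 0.64. The TNF superfamily, to which FAS belongs, had 5 higher and 3 lower of 18, including the death ligand TNFSF10 (TRAIL) at 3.00 ± 0.37.

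DNA repair genes, the direct answer to platinum lesions, had 2 higher and 0 lower of 43, a share of 4.65% against 16.9% over all genes tested. Among them was the excision repair helicase ERCC2 (1.15 ± 0.44). None of the 22 crosslink and break repair genes tested reached 2-fold. The cell cycle list had 2 higher and 2 lower of 45: the G1 kinase CDK6 (1.10 ± 0.51) and the inhibitor CDKN1B (1.06 ± 0.51) were higher, and CENPF (-1.52 ± 0.29) and the mitotic kinase CDK1 (-1.50 ± 0.14) were lower. In the BCL2 family and caspases, 2 were higher and 4 lower of 32, a share of 18.75% against 16.9% over all genes tested. The BH3-only gene BMF was at 2.16 ± 0.32. BID, which links death receptors to mitochondria, was at -2.13 ± 0.17.

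The HOX genes, which give cells their position along the body axis, changed in both directions. Of 9 HOXD genes 6 were tested and higher, and 3 were not above background in line or control. HOXD13, HOXD8 and HOXD3 had the control above background on 0, 1 and 1 of 4 arrays, so they could be tested only because the line was high. Of 10 HOXB genes 7 were tested and 6 were lower, HOXB8 with the line below background. Neither of the 2 HOXA genes tested passed the limit, and of 5 HOXC genes HOXC5 was higher at 1.04 ± 0.73, but under the limit with the other control channel. HOXD8 was at 5.55, 4.58, 4.84 and 5.65 (mean 5.16 ± 0.53), HOXD9 at 4.14, 4.27, 4.12 and 4.25 (mean 4.20 ± 0.07) and HOXD11 at 4.78 ± 0.60. HOXD13 was at least 4.45-fold higher. HOXB6 was at -5.41, -6.11, -5.59 and -6.38 (mean -5.87 ± 0.45), HOXB9 at -4.96 ± 0.24 and HOXB5 at -4.40 ± 0.13, and HOXB13, which lies apart from its cluster, was at 0.19 ± 0.24. In A2780CBN, HOXB6 was at -1.97 and HOXD9 at -0.23. With the other control channel the HOXD genes were higher in 6 of 6 and the HOXB genes lower in 5 of 8. Of these HOXD genes only HOXD9 was above background in that control. The others could be tested there only because the line was high, so they could not have been called lower.

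**Figure D5:**
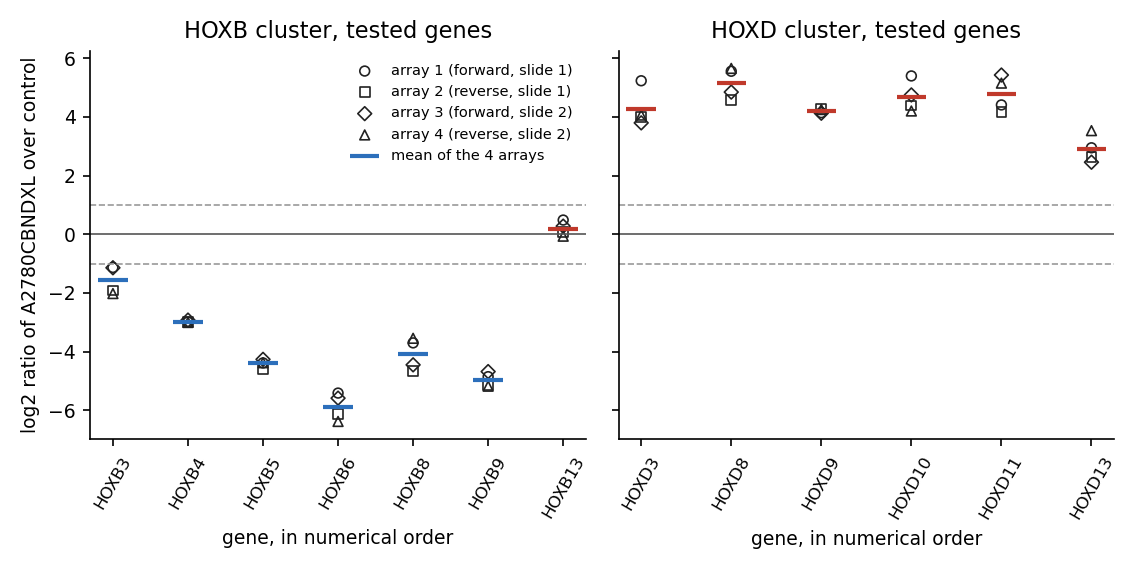
Log2 ratio of A2780CBNDXL over its control for the tested HOXB genes (left) and HOXD genes (right), with an open symbol for each of the 4 arrays and a bar for the mean, dashed lines at 2-fold. All HOXD means lie above 0, up to 5.16 for HOXD8 (that of HOXD13 rests on a control below background), and the HOXB means lie below, down to -5.87 for HOXB6, except that of HOXB13.

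Of 13 other regulators of cell identity tested, 4 were lower, 0 were higher and 9 were under the limit (median -0.15). The lower ones included SOX9 (at least 38.0-fold), FOXL2, a factor of ovarian granulosa cells (-3.71 ± 0.11), and MYC (-1.02 ± 0.07). Among 7 ovarian tumour markers tested, SPP1 (osteopontin) was lower (at least 2.67-fold), and the secreted kallikreins KLK8 (5.32 ± 0.72) and KLK7 (at least 4.14-fold) were higher. In eicosanoid synthesis the prostaglandin receptor PTGER2 was higher (4.05 ± 0.22), and 4 of 13 members were lower, led by the phospholipase PLA2G3 (-5.17 ± 0.66). Of the G proteins and their RGS regulators, 6 were higher and 5 lower of 27.

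Markers of the labelled tissue were sparse. Of 9 epithelial markers 5 were tested, and EPCAM was the changed one, higher at 1.67 ± 0.24. No endothelial marker of 6 could be tested and 4 of 8 lymphoid and myeloid markers could. Fibroblast markers, however, were tested for 7 of 8, with 5 higher (the matrix proteoglycan DCN at 3.62 ± 0.29, LUM at 2.51 ± 0.18, FAP at least 3.25-fold, COL1A1 and COL3A1) and COL1A2 lower. The collagens among them are counted in the collagen list as well. The part of fibroblast markers in the matrix results was not tested. In a bulk culture, a change in the mix of cells and a change in expression per cell cannot be told apart.

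In chromosomal order (NCBI36 positions of the probes), 39 runs of 4 or more neighbouring tested genes changed in the same direction. Runs were formed over the 11500 tested genes with a proper name. Genes known by accession, clone, LOC or open-reading-frame numbers were passed over and may lie within a run. ABCB1 and ABCB4 lay in such a run on chromosome 7 with CROT and TP53TG1 (median 3.90), from 86808685 to 86976539. The 6 HOXD genes formed another on chromosome 2 (median 4.47), and SKAP1 with the 6 lower HOXB genes one more on chromosome 17 (median -4.09). IFNG was higher with its neighbours IL26, MDM1 and RAP1B on chromosome 12 (median 2.88), and KLF6 with AKR1E2, AKR1C1 and AKR1C3 on chromosome 10 (median 2.53). On the lower side stood FOXP2, MDFIC, TES, CAV2 and CAV1 on chromosome 7 (median -4.88), NOX4 to CHORDC1 on chromosome 11 (7 genes, median -5.70), and LIPA with the 4 IFIT genes on chromosome 10 (median -2.31). Some run members could be tested only because the line was high, such as ABCB1, ABCB4, HOXD13, HOXD8 and HOXD3. Others, such as FOXP2, MDFIC and NOX4, could be tested only because the control was high. The number of runs expected in a random gene order was not estimated. Copy number was not measured. By chromosome, over the same named genes, 19 had the smallest share of lower genes (4.66%) beside 9.87% higher, and 4 the largest share of lower genes (15.5%).

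The study chose 16 genes for validation from its resistant lines, these samples among them, so they are not independent evidence. Of them 13 changed, 8 higher and 5 lower. LGI1 was not well above background, GSTO1 had a spot missing, and PARP9 was at 0.06 ± 0.05. By QPCR of the same line the study reported PARP9 as higher. It describes the QPCR reference as the parent line, whereas the arrays used the co-cultured control A2780CC. It found no significant difference for GCLC and MT2A, which were called lower here. The other changed genes of the set had the same direction by QPCR. Side by side with A2780CBN, whose control bears the same name, the values were alike in some genes and apart in others. LAYN was at -7.19 in A2780CBNDXL and -7.27 in A2780CBN, ANXA1 at -5.41 and -6.70, and PRSS7 at 6.94 and 7.36. FLRT3 was at -6.85, while in A2780CBN, with the line below background, it fell at least 162-fold. In contrast ABCB1 and CDH11 were above background in A2780CBNDXL and not in A2780CBN. Genes called in opposite directions in the lines are given in the closing section.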

How the data were processed

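The authors labelled pooled total RNA of line and control with different dyes and hybridized 4 two-colour Agilent arrays for each line, forward and reverse labelled on each of 2 slides. The deposited values are the processed intensity of each channel from Agilent Feature Extraction (10.7.1.1 for slide 1, 10.7.3.1 for slide 2), background-subtracted and dye-normalized by that software. The submitters' notes also name Partek. Other deposited intensity columns (spot mean, background median, background-subtracted) were used for alternatives alone. On reverse arrays the dye entries of the labels conflict with the array names, and the arrays were turned as the names state. The labels' concentration for A2780CBNDXL is the IC50 of carboplatin in the study's text, which gives a lower tolerated dose.

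Outlier spots (0.39% to 2.32% on the arrays of the line) were dropped, saturation was marked nowhere, and repeated spots of a probe were averaged. Log2 ratios of line over control were averaged within a labelling direction and then over both, which cancels a constant dye effect. Each gene took the values of its brightest probe over all arrays. Gene names are those of the files, and 26222 of 41000 probes matched RefSeq, which gave current symbols. Some names are old: PRSS7 is now TMPRSS15 and ASAM is CLMP. The call rule was 2-fold (1 on the log2 scale), the same sign on 4 arrays and 1 channel well above background on all 4. Bounds, and ratios against the control channel of the A2780CBN arrays, used channel values scaled between arrays (limma 3.58.1, R 4.3.3). Those ratios take line and control from different arrays, so differences between hybridizations enter them, unlike the main ratios. The calls were tested on simulated data, and the remaining steps used Python 3.11.15. Array number limits the precision, and array error is the only error measured.

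Named genes are those at either end of the ratios (15 each), the 10 brightest bounds and the 10 brightest changed genes in each direction, up to 4 changed members of each list in each direction, the 16 validation genes, neighbours in runs, and genes whose probes or dyes disagree. From these the text gives those of known function, together with partners under the limit, further changed list members (GSTM1, GSTM5, CDKN1A, BTG2 and others) and ANGPTL4 and ENO2, which were picked for how they moved between controls. Members, lists and tests were chosen with earlier results of these data known. Alternatives were other background corrections, probe summaries, filters, fold limits, array subsets, a 3-way ANOVA, limma and the control channel of the A2780CBN arrays. Results for some genes are not reported here.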

Additional observations from a re-analysis of the deposited data

Results flagged for a closer look

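Among the genes named above, 24 were called changed in both lines but in opposite directions, each on all 4 arrays of its line. The difference between the lines was not tested, since each line is 1 sample, and the controls, though of the same name, are not alike for some of these genes. Values are log2 ratios unless given as a fold, first in A2780CBNDXL and then in A2780CBN. Genes called in the same direction in both lines were not counted, so 24 is not a share. They include LAYN (-7.19 and -7.27), PRSS7 (6.94 and 7.36), GNA14 (6.11 and at least 34.5-fold higher) and IFNG (5.87 and at least 10.5-fold higher).

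Several were interferon and antigen presentation genes. IFIT1 was at -2.31 and 1.88, IFIT2 at -2.63 and 2.92, IFIT3 at -1.98 and 3.28, and IFIT5 at -1.71 and 1.19. Their neighbour LIPA, a lysosomal lipase gene, was at -2.69 and 2.31. The transcription factor IRF1 was at -1.81 and 2.86. TAP1 was at -2.56 and 3.79, PSMB9 at -1.96 and 3.53, and HLA-C at -1.72 and 2.42.

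Genes that handle drugs and thiols were apart as well. AKR1C3 was at 2.87 and at least 2.50-fold lower, GCLC at -1.22 and 3.09, and MT2A at -2.18 and 1.95. The beta-tubulin TUBB2B was at -4.00 and 1.86, and the stress gene TRIB3 at -4.51 and 1.41.

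Among adhesion and signalling genes, PCDH9 was at 4.63 and at least 7.90-fold lower, PCDH15 at least 23.9-fold lower and at 2.03, and SEMA6D at 5.86 and at least 2.69-fold lower. PDGFRA was at 2.90 and -1.85, FGF18 at 2.86 and -1.80, and TGFBR2 at -2.36 and 1.12. MMP10 was at -3.71 and 1.40, PLA2G3 at -5.17 and 2.73, and CDK6 at 1.10 and -1.03. SPP1 was at least 2.67-fold lower and at 5.33.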

How the results depend on the processing

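The direction of the changed genes was kept under other processing of the same arrays, while their number moved with the fold limit and with normexp (offset 50) and loess, which change background and normalization together. The latter gave 1172 genes (488 higher, 684 lower), all 2893 kept their sign, and 194 of 487 changed genes of the named genes, lists and runs lay under 2-fold, with sizes of 0.596 of those reported in median. A 1.5-fold limit gave 5699 (2803 higher, 2896 lower) and a 3-fold limit 1467 (611 and 856). Requiring both channels above background left 1018 lower genes. Members of the gene lists that changed numbered 299, and 173 with normexp, 467 at 1.5-fold and 190 at 3-fold. Leaving out each array in turn gave 2899 to 3189 changed genes, 1312 to 1426 higher, 1586 to 1763 lower, and 298 to 321 list members, the highest without array 1. Reverse arrays alone gave 4196 and forward arrays alone 2809, and background-subtracted signals centred on the median 2876. The 3-way ANOVA called 2662 and limma 2899, or 2898 with slide as a block, on array error alone. Against the control channel of the A2780CBN arrays, chosen after seeing the data, 2989 genes changed, 2771 of 2859 with a value (96.9%) kept their sign and 2043 were still changed the same way. Of the genes in the text, CA9 (0.68), ENO2 (0.28), ANGPTL4 (0.12), MAPT (0.032) and TUBA3C (-0.13) turned over, and 10 of 46 list and marker medians changed sign. The cause was not tested. No paired analysis was possible because each line is 1 sample. Differences in dim genes are limited by background: 374 changed genes have a bound in place of a fold.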
